A study of Mus musculus with 4 samples.

Results

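The genes described here are 33 DNA replication and mitosis genes, taken by symbol out of the 22026 genes that all 4 deposited tables list. They were divided by the phase of the cell cycle in which they act into 14 S phase genes (Ccne1, Ccne2, E2f1, Cdc6, Mcm2 to Mcm7, Pcna, Tyms, Rrm1 and Rrm2) and 19 G2/M genes (the rest, from Ccna2 to Mki67). RNA was sequenced from bone marrow derived macrophages of C57BL/6 mice aged 8 weeks, with 2 libraries from wild-type controls (WT) and 2 from mice of the genotype Rbpj f/f;LysM cre (RBP-J KO). In the latter, the Cre recombinase is expressed from the lysozyme 2 locus, which is active in myeloid cells, and removes the floxed part of Rbpj, the gene of the DNA-binding protein RBP-J of the Notch pathway. Marrow cells of both groups had been cultured for 3 days with CMG14-12 supernatant, equivalent to 20 ng/ml of recombinant M-CSF. The labels do not say whether the controls carried Cre or the floxed alleles.

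A cell that enters the cycle activates the E2F transcription factors, which switch on genes for DNA synthesis at the border of G1 and S phase. Later, the MuvB complex with B-Myb, followed by Foxm1, drives the genes of mitosis, which peak in G2 and M phase and are silenced when cells rest. M-CSF is a growth factor as well as a survival factor of macrophages, and young marrow cultures in M-CSF contain dividing precursors. In bulk RNA, fewer dividing cells and less of these RNAs in each dividing cell cannot be told apart.

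Rbpj itself was measured in FPKM, a level per length of transcript and per size of library. Its level was 355 FPKM in WT replicate 1 against 51.5 in RBP-J KO replicate 1, and 573 FPKM in WT replicate 2 against 77 in RBP-J KO replicate 2. The replicate numbers separate the libraries in table layout, genes in replicate 1 and transcripts, here summed per gene, in replicate 2. They also differ in the Y-linked gene Ddx3y, picked with its values known, which had 193 FPKM (WT) and 174 FPKM (RBP-J KO) in replicate 1 and a listed value of 0 in replicate 2. All 8 macrophage markers were detected in every library. They summed to 16834 FPKM (WT) and 19091 FPKM (RBP-J KO) in replicate 1, and to 15405 FPKM (WT) and 12556 FPKM (RBP-J KO) in replicate 2. The labels do not say that the libraries of a group came from separate mice or cultures, so any p-value given here covers the spread among libraries, which may be technical. Because of the division by replicate number, RBP-J KO was compared with WT inside each number as well as over all 4 libraries. Inside a number there is 1 library a group, so that those differences have no replicate check and no test.

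In replicate 1, every member was lower in RBP-J KO than in WT (33 of 33, against 55.6% of all 11851 genes tested), and the differences were larger for the G2/M genes than for the S phase genes. The median log2 difference, on the scale of log2(FPKM + 1) used throughout, was -1.79 for the G2/M genes (3.45-fold lower) and -0.43 for the S phase genes (1.35-fold lower). In replicate 2 the medians were 0.08 and 0.26. All 19 G2/M genes were lower by 2-fold or more in replicate 1, as were 4 of 14 S phase genes (Ccne1, Ccne2, Cdc6 and Rrm2), against 5.11% of all genes tested. In replicate 2, no member differed by even 1.5-fold, against 8.18% of all genes lower and 6.48% higher by that much, so that 0 members differed by 1.5-fold or more in both numbers in either direction (3.63% of all genes lower, 3.86% higher). Of the members 28 were higher in RBP-J KO in replicate 2 and 5 were lower (E2f1, Pcna, Ccnb2, Cenpf and Cdc20), against 46.2% and 52.6% of all genes, and those 5 were the members lower in both numbers, against 34.1% of all genes. The median difference over all genes tested was -0.05 in replicate 1 and -0.02 in replicate 2. The difference between the replicate numbers could not be tested, since each holds 1 library a group.

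**Figure D1:**
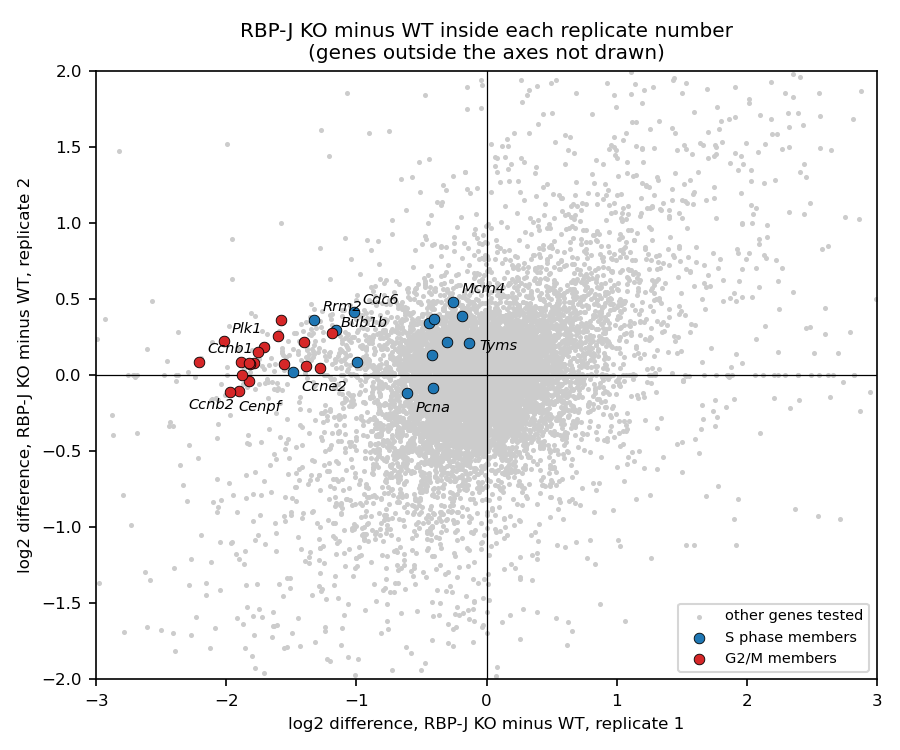
Each point is a gene, with the log2 difference RBP-J KO minus WT of replicate 1 on the horizontal axis and of replicate 2 on the vertical axis. G2/M members (red) lie between -2.21 and -1.19 on the horizontal axis and within -0.11 and 0.36 on the vertical one, while most S phase members (blue) lie nearer to 0 on the horizontal axis, among the other genes (grey).

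The counts of motif letters in promoters also differed between the classes. RefSeq promoter windows (build GRCm38.p6, 250 bases before to 50 after the start) were at hand for 26 of the 33 members, 12 of S phase and 14 of G2/M. Mcm7 has 2 windows, of which the first holds each of the motifs searched, so that the counts of genes are the same with 1 window a gene. Both strands were searched for E2F sites (the letters TTCCCGC, or else TTCGCGC, or else TTGCCGC, or else TTGGCGC), for the cell cycle genes homology region or CHR, the element to which MuvB binds (the letters TTTGAA, or else TTCGAA, or else TTTAAA), for the CCAAT box of the factor NF-Y (CCAAT) and for the core of the RBP-J site (TGGGAA). All 14 G2/M genes had CHR letters in the window, against 5 of 12 S phase genes (Ccne1, Mcm2, Mcm5, Mcm7 and Rrm2) and 28.8% of all 32851 windows. E2F letters were found for 3 of 14 G2/M genes and 7 of 12 S phase genes, against 9.57% of all windows. A CCAAT box was present for 13 of 14 G2/M genes, Birc5 being the exception, and for 8 of 12 S phase genes (37.4% of all windows). CHR letters and a CCAAT box stood in the same window for 13 G2/M genes and 4 S phase genes (11.3% of all windows). A match is a run of letters and not a shown binding site.

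Stretches of 6 promoters, from 170 bases before to 30 bases after the start, are given to show this contrast. They belong to the mitotic regulators Ccnb1, Plk1, Cdk1 and Cdc20 and the helicase genes Mcm5 and Mcm6. Not every S phase gene shows the contrast. Mcm2, another helicase gene, has CHR letters from -70 to -65 and no E2F match in its window. Capitals mark CHR and E2F matches, and each stretch is written in the direction of its gene, build GRCm38.p6.
Ccnb1, chr13:100786457-100786656, minus strand: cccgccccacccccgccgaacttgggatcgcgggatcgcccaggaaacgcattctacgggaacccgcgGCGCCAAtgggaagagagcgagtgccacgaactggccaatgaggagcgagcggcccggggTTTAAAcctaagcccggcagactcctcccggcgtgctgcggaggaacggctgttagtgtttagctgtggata
Plk1, chr7:122159265-122159464, plus strand: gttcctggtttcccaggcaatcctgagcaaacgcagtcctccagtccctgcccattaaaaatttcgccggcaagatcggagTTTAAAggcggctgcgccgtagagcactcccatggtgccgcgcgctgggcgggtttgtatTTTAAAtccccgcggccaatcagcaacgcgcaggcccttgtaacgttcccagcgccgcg
Cdk1, chr10:69352883-69353082, minus strand: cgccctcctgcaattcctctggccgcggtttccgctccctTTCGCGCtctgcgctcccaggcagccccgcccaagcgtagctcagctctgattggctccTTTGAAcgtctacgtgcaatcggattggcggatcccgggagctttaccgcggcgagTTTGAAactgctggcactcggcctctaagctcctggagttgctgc
Cdc20, chr4:118437314-118437513, minus strand: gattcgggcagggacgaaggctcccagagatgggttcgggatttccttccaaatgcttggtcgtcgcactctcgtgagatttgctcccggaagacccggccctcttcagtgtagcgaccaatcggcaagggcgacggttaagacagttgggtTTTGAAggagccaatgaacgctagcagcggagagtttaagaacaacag
Mcm5, chr8:75109339-75109538, plus strand: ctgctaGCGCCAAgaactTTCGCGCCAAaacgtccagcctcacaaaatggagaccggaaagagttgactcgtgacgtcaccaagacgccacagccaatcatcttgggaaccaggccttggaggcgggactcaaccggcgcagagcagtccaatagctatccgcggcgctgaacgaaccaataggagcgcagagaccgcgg
Mcm6, chr1:128359676-128359875, minus strand: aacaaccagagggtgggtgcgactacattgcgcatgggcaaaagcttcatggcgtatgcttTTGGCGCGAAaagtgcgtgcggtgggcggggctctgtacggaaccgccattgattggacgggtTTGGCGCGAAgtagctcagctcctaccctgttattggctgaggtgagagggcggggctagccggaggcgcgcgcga
The CHR letters of Ccnb1 lay from -42 to -37 relative to the start, where +1 is the first transcribed base. Plk1 had them from -89 to -84 and again from -29 to -24, Cdk1 from -71 to -66 and from -15 to -10, and Cdc20 from -18 to -13. Neither helicase stretch holds CHR letters; in Mcm5 a CHR match lies farther out, from -221 to -216. E2F letters in Mcm6 occurred from -109 to -103 and from -46 to -40, each overlapped by a further E2F match on the other strand. Ccnb1 and Cdk1 carry E2F letters as well. RBP-J letters were found for 5 of 12 S phase genes (Cdc6, Mcm3, Mcm5, Mcm7 and Tyms) and 3 of 14 G2/M genes (Ccnb1, Plk1 and Aurka), against 25.6% of all windows. In Ccnb1 a CCAAT box from -99 to -95 overlaps the E2F match (-102 to -96) and shares its last base with the RBP-J letters (-95 to -90).

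**Figure D2:**
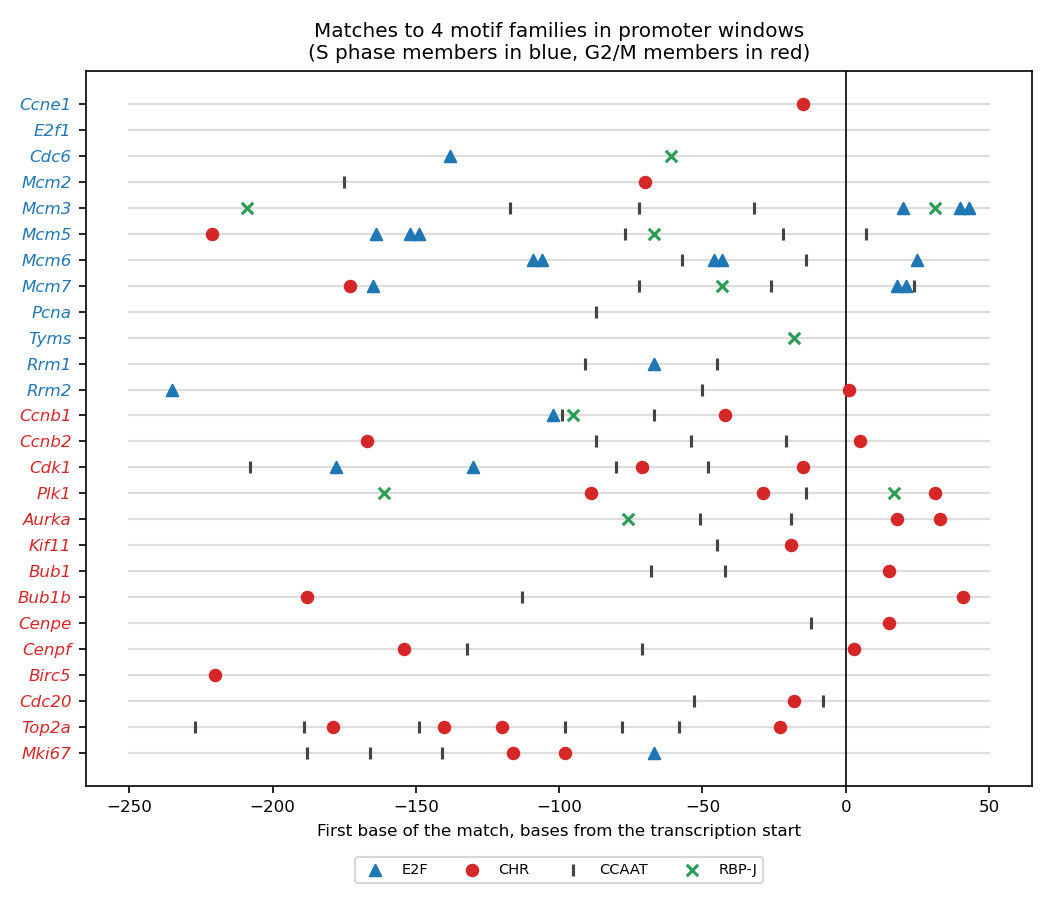
Each row is the promoter window of 1 member (of Mcm7 the first of its windows), and each symbol is the first base of a match, in bases from the transcription start. CHR matches (red circles) occur in every G2/M row, and E2F matches (blue triangles) crowd in Mcm3, Mcm5, Mcm6 and Mcm7.

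The S phase genes begin with the regulators of entry. Ccne1, a cyclin that activates Cdk2 at the start of S phase, had 131 FPKM (WT) and 58.1 FPKM (RBP-J KO) in replicate 1, and 58.4 FPKM (WT) and 71.8 FPKM (RBP-J KO) in replicate 2. Its paralog Ccne2, given here and below in that order of libraries, was at 159, 56.2, 61.4 and 62.2 FPKM. E2f1, the E2F factor itself, was at 179.5, 135, 142 and 134 FPKM. WT replicate 1 stood above the other libraries for each of these genes, and RBP-J KO replicate 1 was level with or close to both replicate 2 libraries.

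Of the S phase groups, the licensing genes had the median nearest to 0 in replicate 1 (-0.40) and the highest one in replicate 2 (0.37). Mcm2 to Mcm7 encode the 6 subunits of the ring-shaped helicase that is loaded on replication origins and unwinds DNA. Mcm6 was at 687, 514, 364 and 400.4 FPKM. Mcm5 was at 419, 316, 252 and 326 FPKM. Mcm3 was at 416, 337, 227 and 264 FPKM. All 6 subunits had the same order at its ends, with WT replicate 1 highest and WT replicate 2 lowest, and both RBP-J KO libraries lay between the WT libraries. Mcm4 was at 319, 267, 136 and 191 FPKM. Mcm2 was at 282, 207, 148 and 188 FPKM. Mcm7 was at 241, 211, 133 and 174 FPKM. Inside replicate 1 the helicase genes were lower by 0.19 to 0.44 on the log2 scale, and inside replicate 2 they were higher by 0.14 to 0.48. Cdc6, which loads the helicase, was at 63.7, 30.9, 21.8 and 29.4 FPKM, so that its WT libraries lay on either side of both RBP-J KO libraries too.

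Among the genes of the fork and of nucleotide supply, Pcna, the sliding clamp of DNA polymerases, was the most abundant member, at 1591, 1042, 1076 and 993 FPKM. Rrm2, the regulated subunit of ribonucleotide reductase, was at 389.5, 155, 211 and 273 FPKM. Rrm1, the large subunit of the same enzyme, was at 467, 233, 308 and 327 FPKM. For both subunits RBP-J KO replicate 1 was the lowest library and WT replicate 1 the highest. Tyms, thymidylate synthase, was at 51.2, 46.6, 57.8 and 67.0 FPKM and was the only S phase gene for which WT replicate 1 was not the highest library.

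Within the S phase class the replicate 1 differences formed a wide range, from -1.48 to -0.13. Ccne2 (-1.48), Rrm2 (-1.33), Ccne1 (-1.16), Cdc6 (-1.02) and Rrm1 (-1.0) lay near the upper end of the G2/M genes. Pcna (-0.61), the helicase genes (median -0.35), E2f1 (-0.41) and Tyms (-0.13) differed less. Ccne2 and Rrm2 alone lay below Bub1b, the G2/M gene with the smallest difference (-1.19), so that the classes overlapped by these 2 genes.

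The genes of mitotic entry had replicate 1 differences from -2.21 to -1.41, with a median of -1.85 against -1.79 for all G2/M genes. Ccnb1, the cyclin that activates Cdk1 for mitosis, was at 136, 28.5, 105 and 112 FPKM. Its paralog Ccnb2 was at 169, 44.4, 288 and 269 FPKM. Ccna2, the cyclin of S phase and G2, was at 449.6, 129.6, 358 and 378 FPKM. In each case RBP-J KO replicate 1 stood alone below the other 3 libraries. Cdk1, the kinase partner of these cyclins, was at 299, 112, 239 and 278 FPKM. Plk1, a kinase that promotes mitotic entry and spindle assembly, was at 153, 36.8, 156 and 183 FPKM. Foxm1, the transcription factor of G2/M genes, was at 111, 33.2, 106 and 121 FPKM. WT replicate 1 and both replicate 2 libraries were close together for Plk1 and Foxm1, with RBP-J KO replicate 1 lower than WT replicate 1 by 4.06-fold and 3.28-fold. The WT mean of Plk1 was 154 ± 2.53 FPKM and its RBP-J KO mean 109.8 ± 103 FPKM (SD, n = 2), so that the spread inside RBP-J KO exceeded the difference between the groups.

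Spindle genes gave the same picture. Aurka, the centrosome kinase, was at 156, 41.4, 127.5 and 136 FPKM. Tpx2, its activator on spindle microtubules, was at 183, 53.5, 154 and 172 FPKM. Kif11, the motor that pushes the spindle poles apart, was at 148, 49.8, 121 and 127 FPKM. Kif20a, a kinesin of cytokinesis, was at 150.2, 61.1, 163 and 168 FPKM. The 3 libraries other than RBP-J KO replicate 1 differed little from one another for all of these genes.

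At the kinetochore and the spindle checkpoint, Bub1, a checkpoint kinase, was at 135, 37.6, 94.3 and 99.5 FPKM. Bub1b, its relative in the mitotic checkpoint complex, was at 174, 75.8, 136 and 164 FPKM. Cenpe, the kinetochore motor, was at 78.6, 25.3, 53.6 and 64.3 FPKM. Cenpf was the least abundant member, at 38.7, 9.11, 31.4 and 29.0 FPKM. For all of these RBP-J KO replicate 1 was the lowest library. Aurkb, the kinase that corrects chromosome attachment, was at 165, 62.4, 168 and 174 FPKM. Birc5, or survivin, which holds Aurkb at the centromere, was at 361, 101, 369.9 and 391 FPKM. These partners of the chromosomal passenger complex thus had similar levels in both WT libraries and RBP-J KO replicate 2, and were lower in RBP-J KO replicate 1. Cdc20, which activates the anaphase-promoting complex, was at 88.3, 24.1, 134 and 130.0 FPKM.

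Of the genes of chromosome structure, Top2a, the topoisomerase that untangles sister chromosomes, was at 525, 175, 308 and 396 FPKM. Mki67, which coats mitotic chromosomes and is the usual marker of dividing cells, was at 318, 85.9, 184 and 185 FPKM. These were the only G2/M genes for which WT replicate 1 exceeded WT replicate 2 by 1.5-fold or more.

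**Figure D3:**
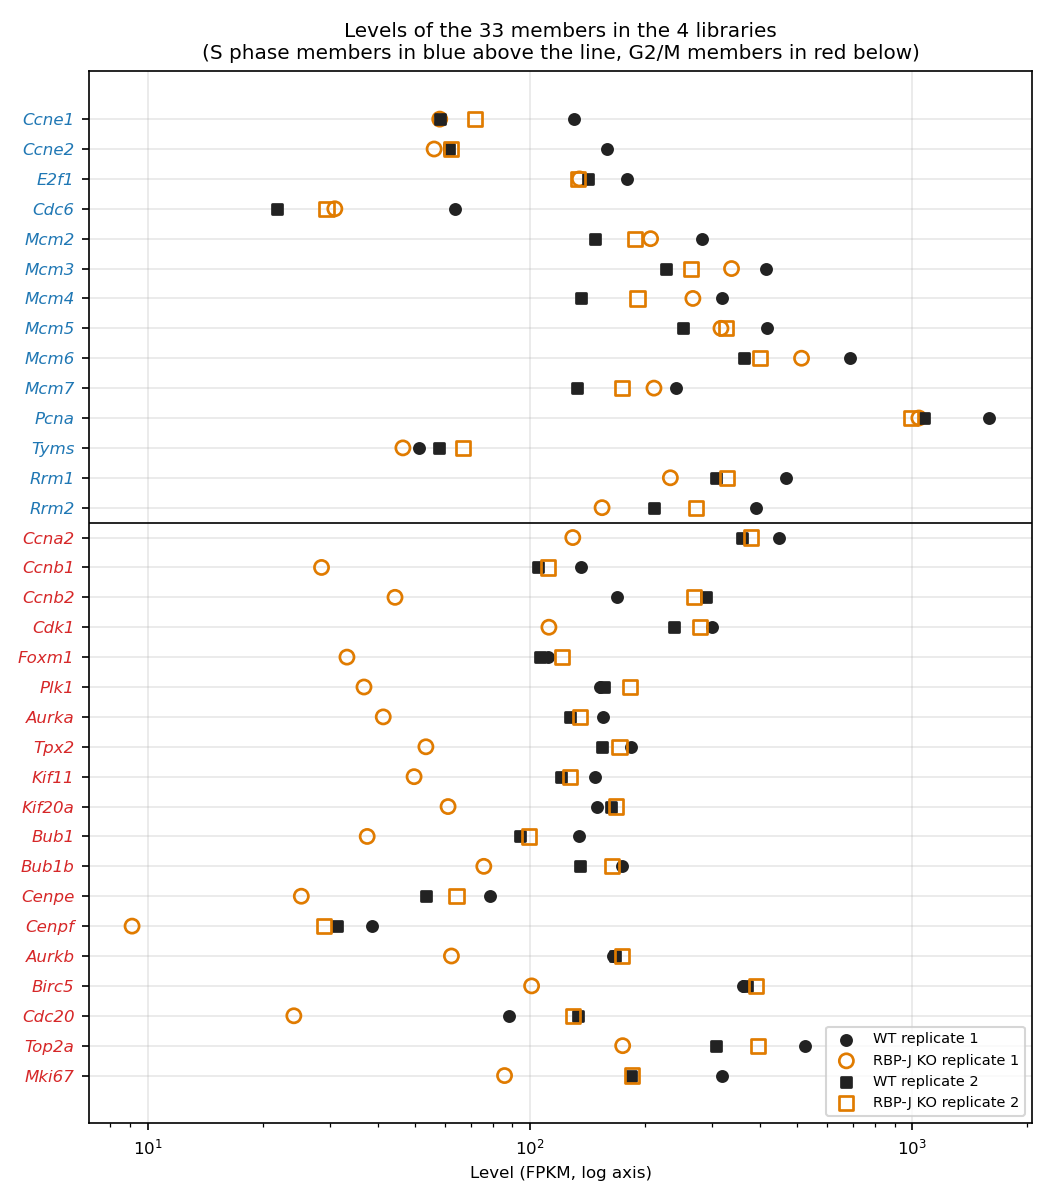
Each row is a member and each symbol its level in 1 library, in FPKM on a log axis; filled black symbols are WT, open orange symbols RBP-J KO, circles replicate 1 and squares replicate 2. The open circle (RBP-J KO replicate 1) stands apart to the left in all 19 G2/M rows, and the filled circle (WT replicate 1) stands to the right in 13 of 14 S phase rows.

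The comparison of libraries inside each genotype separated the classes in another way. It crosses the replicate numbers, which differ in table layout, in Ddx3y and in the neutrophil markers given below. A high or low level of a single library can therefore not be told apart from a difference between the numbers. WT replicate 1 was the highest library for 13 of 14 S phase genes and 12 of 19 G2/M genes, against 34.3% of all genes tested. It exceeded WT replicate 2 by 1.5-fold or more for 11 S phase genes and 2 G2/M genes, against 17.2% of all genes, with median log2 differences of 0.87 and 0.29 (0.12 over all genes). RBP-J KO replicate 1 was the lowest library for 19 of 19 G2/M genes and 5 of 14 S phase genes, against 26.5% of all genes. RBP-J KO replicate 2 exceeded it by 1.5-fold or more for all 19 G2/M genes and, among S phase genes, for Rrm2 alone, against 10.1% of all genes, with medians of 1.54 and -0.04 (-0.08 over all genes). For the S phase genes the replicate 1 difference thus went with a level in WT replicate 1 above that of WT replicate 2. For the G2/M genes it went with a level in RBP-J KO replicate 1 below that of RBP-J KO replicate 2.

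The same holds for the mean log2 levels. Over the S phase genes they were 8.07 (WT) and 7.41 (RBP-J KO) in replicate 1, and 7.23 (WT) and 7.45 (RBP-J KO) in replicate 2. Over the G2/M genes they were 7.41, 5.69, 7.22 and 7.33 in that order. The G2/M level minus the S phase level, which a scaling of whole libraries leaves nearly untouched, was -0.66 (WT) and -1.72 (RBP-J KO) in replicate 1 and -0.01 (WT) and -0.13 (RBP-J KO) in replicate 2. RBP-J KO was therefore below WT in this difference inside both replicate numbers, by a wide margin in replicate 1 and a narrow one in replicate 2. The WT libraries differed from each other by more than the replicate 2 libraries did.

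**Figure D4:**
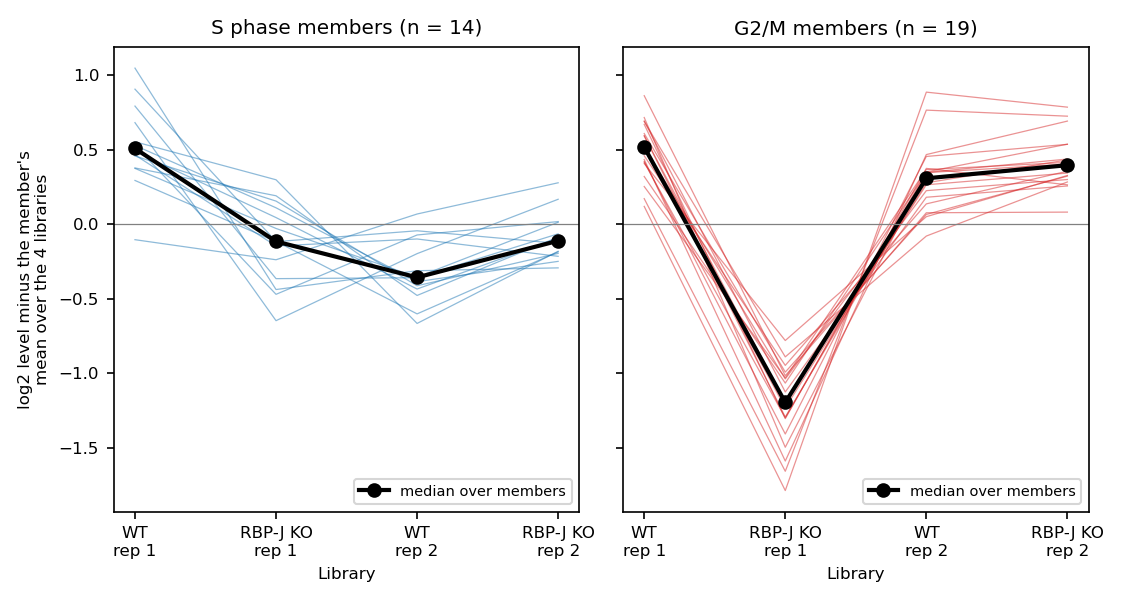
The vertical axis is the log2 level of a member minus its own mean over the 4 libraries, with 1 thin line a member and the median over members in black; the lines only join the values of a member. The G2/M median is lowest in RBP-J KO replicate 1, and the S phase median is highest in WT replicate 1.

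Set against the WT library of the other number, with which these comparisons share libraries, RBP-J KO replicate 1 had medians of -1.46 for the G2/M genes and 0.16 for the S phase genes. RBP-J KO replicate 2 against WT replicate 1 had medians of -0.10 and -0.62. The G2/M median of RBP-J KO replicate 1 was thus negative against either WT library, whereas the direction of the S phase genes changed with the WT library. These comparisons mix genotype with replicate number, and so with table layout and the difference in Ddx3y. They are therefore no replicate check of the differences inside a number.

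Over all 4 libraries no member passed the test. In the limma model fitted to all genes with Benjamini-Hochberg adjustment, 0 of 33 members and 0% of all genes had an adjusted p under 0.05, and every member had an adjusted p of 0.999. At an unadjusted p under 0.05 there were 0 members, against 4.42% of all genes. Fitted log2 differences of the G2/M genes, RBP-J KO minus WT, ran from -1.06 for Ccnb1 to -0.46 for Bub1b, with standard errors of 0.42 to 0.91. For the S phase genes they ran from -0.73 for Ccne2 to 0.11 for Mcm4, with standard errors of 0.20 to 0.54. Mki67, with a WT mean of 251 ± 94.8 FPKM against 135 ± 69.99 FPKM for RBP-J KO (SD, n = 2), had the smallest unadjusted p of the members (limma, 0.114; adjusted p = 0.999). The groups did not overlap for 3 members, E2f1, Pcna and Cenpf, all lower in RBP-J KO; over all genes tested both RBP-J KO libraries lay below both WT libraries for 18.2%, and above them for 11.7% and 0 members. The median over all libraries was -0.85 for the G2/M genes and became 0.03 without RBP-J KO replicate 1, and that of the S phase genes was -0.19 and became 0.23 without WT replicate 1.

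In the replicate 2 libraries, where transcripts are listed singly, 7 members had several. For Tpx2 the division among its transcripts differed between the libraries while the sum did not. The 2 Tpx2 transcripts highest in WT, at 58.5 and 44.2 FPKM, had 10.7 and 10.4 FPKM in RBP-J KO, and 2 others had 15.4 and 21.5 FPKM in WT against 60.7 and 69.9 FPKM in RBP-J KO. One Bub1 transcript had 33 FPKM in WT against 51.7 in RBP-J KO, and the other 61.3 against 47.7 FPKM. Transcript levels of 1 gene are estimates that share reads, there is 1 library a group, and no interval is known for them, so that neither shift has a replicate check. In Birc5, Kif20a, Cdc6 and Tyms 1 transcript held nearly all of the level in both libraries, and in Ccne2 the transcripts had similar shares.

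Further genes of the same processes behaved as the members did. Of 63 other G2/M genes, 53 were lower by 2-fold or more in replicate 1 and 0 in replicate 2 (5.11% and 3.57% of all genes), with medians of -1.47 and 0.10. RBP-J KO replicate 1 was the lowest library for 60 of them, against 26.5% of all genes. The most abundant were Tmpo, a nuclear envelope protein, at 617, 279, 399.9 and 437 FPKM; Incenp, the scaffold of the chromosomal passenger complex, at 325, 156, 295 and 309 FPKM; Smc4, a condensin subunit, at 381, 174, 249 and 280.4 FPKM; and Ube2c, the ubiquitin-conjugating enzyme of the anaphase-promoting complex, at 289, 46.4, 329 and 371 FPKM. Ube2c had a larger difference in replicate 1 than any member, -2.61. Pttg1, or securin, and Ncapg2, a condensin subunit, both chosen after their values were seen, went the other way in replicate 1, with 152 FPKM (WT) against 256 (RBP-J KO) and 211 FPKM (WT) against 312 (RBP-J KO). Pttg1 was the only gene of this list higher by 1.5-fold or more there, against 10.3% of all genes.

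Of 58 other S phase genes, 29 were lower by 1.5-fold or more in replicate 1, against 12.1% of all genes, and 1 by 2-fold or more (Rad51ap1, named after its values were seen). Their medians were -0.60 in replicate 1 and 0.24 in replicate 2. WT replicate 1 was the highest library for 52 of them, against 34.3% of all genes. The most abundant were Gmnn, or geminin, the inhibitor of origin licensing, at 446, 228, 247 and 237 FPKM; Rpa1, of the single-strand binding complex, at 374, 249, 241 and 253 FPKM; Dnmt1, which copies DNA methylation, at 339, 286, 204 and 235 FPKM; and Fen1, a nuclease of lagging strand synthesis, at 326, 225, 187 and 222 FPKM. Among these the lowest library was not RBP-J KO replicate 1, apart from Gmnn.

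The regulators that act on both classes, the E2F, DREAM and MuvB genes, listed here together with Myc and Fzr1, had differences nearer to those of the S phase genes. Of these 20 genes 9 were lower by 1.5-fold or more in replicate 1 and 0 in replicate 2 (12.1% and 8.18% of all genes), with medians of -0.51 and 0.08. Only Myc, named after its values were seen, was higher by that much in replicate 2 (6.48% of all genes), at 59.0 FPKM (WT) and 116.9 FPKM (RBP-J KO). Rbbp4, a histone-binding subunit of MuvB, was at 332, 259, 279 and 294 FPKM. E2f4, the E2F factor of the repressive DREAM complex, was at 212, 191, 169 and 176 FPKM. Tfdp1, the dimerization partner of E2F factors, was at 209.7, 129, 164 and 174 FPKM, and Rbl1, the pocket protein p107, at 232, 152, 109 and 126 FPKM.

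**Figure D5:**
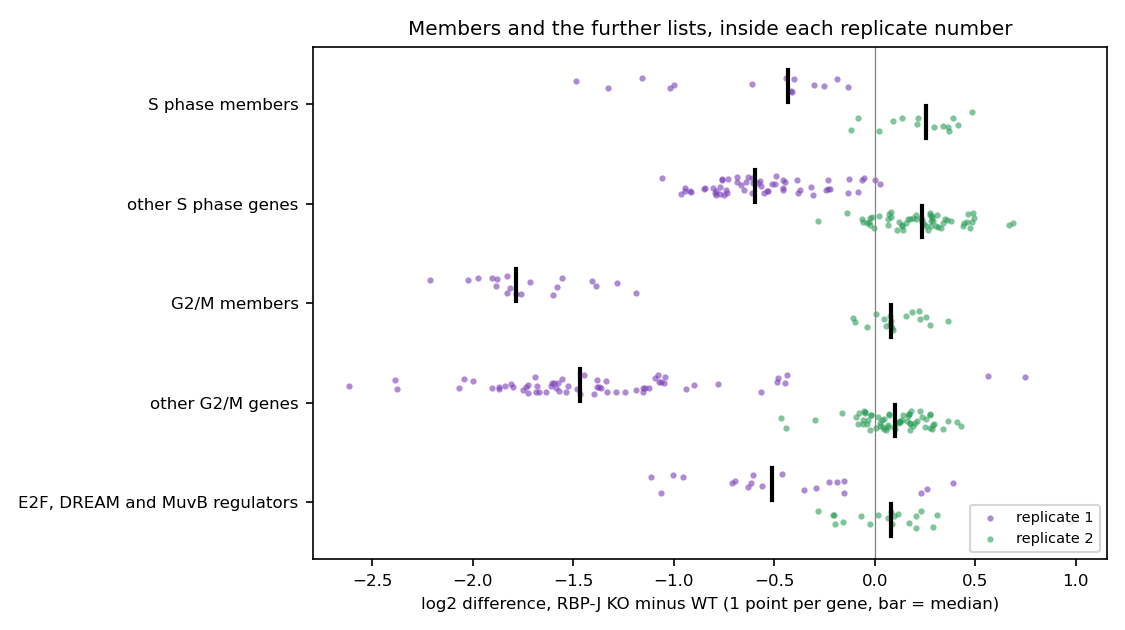
Each point is a gene and the horizontal axis its log2 difference RBP-J KO minus WT, in replicate 1 (violet) and replicate 2 (green); bars are medians. The replicate 1 medians are -0.43 and -0.60 for the S phase lists and -1.79 and -1.47 for the G2/M lists, and all replicate 2 medians lie between 0.08 and 0.26.

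Cell type markers also differed between the libraries. The macrophage sum was highest in RBP-J KO replicate 1, the library with the lowest G2/M levels, but its markers did not move together. Their median log2 difference was 0.38 in replicate 1 and -0.26 in replicate 2. Of the 8 markers, 3 were lower in RBP-J KO in both numbers (Cd68, Lyz2 and Cd14), against 34.1% of all genes. Lyz2, at 218 FPKM (WT) and 94.3 FPKM (RBP-J KO) in replicate 1, is lysozyme 2, from whose locus Cre is expressed in RBP-J KO. In replicate 2 it was at 192 FPKM (WT) and 115 FPKM (RBP-J KO). The part of the Cre allele in the level of Lyz2 was not tested. Higher in both were 2 (Mertk and Fcgr1), against 25.1% of all genes. The 6 progenitor markers, among them Kit, Cd34, Flt3 and Myb, summed to 47.8, 122, 4.65 and 20.0 FPKM in the order of libraries used above. Of the tested genes 5 of 5 were higher in RBP-J KO in both numbers, against 25.1% of all genes. In replicate 1 Cd34 held most of the sum, at 30.3 (WT) and 83.4 FPKM (RBP-J KO). In replicate 2 these markers were near the floor, with Cd34 at 1.78 (WT) and 9.67 FPKM (RBP-J KO) and Kit at 0.0 and 1.22 FPKM. The 14 neutrophil markers summed to 7461, 8881, 388 and 1253 FPKM. Of them 10 were higher in RBP-J KO in both numbers, against 25.1% of all genes. Ngp, Ltf, Mmp8 and Cd177 were lower in RBP-J KO in replicate 1 and higher in replicate 2. The median log2 difference of the neutrophil list was 0.27 in replicate 1 and 1.88 in replicate 2. Its most abundant gene, S100a9, was at 2435, 3047, 109 and 332 FPKM. Mpo, a granule gene of granulocyte precursors, was at 101, 219, 12.4 and 52.5 FPKM, and Elane, another, at 79.0, 172, 7.04 and 28.0 FPKM. The 5 dendritic cell markers summed to 28.4, 135, 42.4 and 24.7 FPKM. The 4 stroma markers summed to at most 5.90 FPKM. The 6 B cell markers summed to 6.93 to 35.9 FPKM with Vpreb1 and Ebf1 at 0, those of T and NK cells to at most 2.95 FPKM and those of mast cells and basophils to at most 16.5 FPKM. The 3 megakaryocyte markers, of which Pf4 is also made by macrophages, summed to 2785 to 4322 FPKM. The part of these cells in the levels of the members was not tested.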

How the data were processed

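The authors deposited 1 table per library with values read as FPKM. TopHat, Cufflinks and build mm9 are named per the submitters' processing notes; the sources used here give no versions, options or annotation. The file headers name no unit. In replicate 2, FPKM times transcript length in kb (GENCODE M21, 97.0% of entries) summed to 5.61 (WT) and 5.32 (RBP-J KO) times what the definition gives, so absolute levels are only described. The depth of sequencing is unknown, so no counting interval is given.

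Transcripts were summed per symbol; 25 symbols turned into dates were restored. Values were analysed as log2(FPKM + 1), a scale that compresses differences of low genes, for the 11851 genes whose mean reached 1 FPKM; all 33 members passed. The limma 3.58.1 model (R 4.3.3) compared the groups with no other term (eBayes with a trend, two-sided, Benjamini-Hochberg adjustment). It was also run on simulated data in which each library varied independently. Equally numbered libraries here had correlated deviations (r = 0.64), so that run cannot show the error rate or power in these data. Figures used Python 3.11.15 and matplotlib 3.10.9. Pseudocount, filter, scaling, transcript summing, trend, replicate block, class of Ccna2 and single libraries were varied. All members are named, and from each further list the 4 genes highest in mean FPKM. The members, classes, lists and motifs were chosen with earlier results of these data known. Promoters are from RefSeq (GRCm38.p6), matched by symbol.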

Additional observations from a re-analysis of the deposited data

Results flagged for a closer look

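The median difference between RBP-J KO and WT had opposite signs in the replicate numbers for both classes. For the G2/M genes it was -1.79 in replicate 1 and 0.08 in replicate 2, which are 1.87 apart on the log2 scale. For the S phase genes it was -0.43 and 0.26, which are 0.69 apart. These differences between the numbers were not tested, since each number holds 1 library a group. The numbers also differ in table layout, in the levels of neutrophil and progenitor markers and, by Ddx3y, in the sex of the mice. These cannot be told apart.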

How the results depend on the processing

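Inside each replicate number the class medians and the G2/M minus S phase difference kept their direction under every pseudocount, filter, scaling, summary and class choice tried. In replicate 1 they moved by 0.1 or more on the log2 scale under a pseudocount of 10 (G2/M -1.53, G2/M minus S phase -1.11) and with means in place of medians (S phase -0.65, G2/M minus S phase -1.06, against medians of -0.43 and -1.36). Over all libraries, leaving out each library in turn gave -1.62 to 0.03 for the G2/M genes, -0.56 to 0.23 for the S phase genes and -1.39 to 0.24 for their difference (-0.66 with all libraries). The direction turned without RBP-J KO replicate 1 (0.03 for the G2/M genes, 0.24 for the difference) and without WT replicate 1 (0.23 for the S phase genes); the cause was not tested. In replicate 2, Bub1 and Ccne2 turned to -0.24 and -0.06 with the highest transcript in place of the sum, Cdc20 to 0.02 under upper-quartile scaling and Pcna to 0.04 under quantile normalization.

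With limma, 0 members passed the adjusted threshold under any setting, and 0 of all genes did except with no filter on low values, where 8 of 22026 did. Leaving out single libraries gave 0 called genes each time; the lone sample of a group is then assumed to vary like the other group. At an unadjusted p under 0.05 there were 0 members with all libraries, against 4.42% of all genes. No label says that a replicate number marks a shared animal or day. With the replicate number as a block 0 genes passed, 1557 had an unadjusted p under 0.05 (524 without the block), and the smallest adjusted p among the members was 0.466; deviations of equally numbered libraries had r = 0.64 across genes. Read depth is unknown, so what it limits cannot be stated.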

Other observations

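The D-type cyclins, their kinases and the inhibitors of these kinases act before the genes described above. In replicate 1, 11 of 14 such genes were lower in RBP-J KO and 3 higher, with a median log2 difference of -0.46, and the replicate 2 median was 0.10. By 1.5-fold or more, 6 were lower and 2 higher (Ccnd2 and Cdkn1c) in replicate 1, against 12.1% and 10.3% of all genes tested, and 0 were lower and 2 higher (Ccnd2 and Cdkn2b) in replicate 2, against 8.18% and 6.48%. Ccnd1, the main cyclin induced by M-CSF, had 1654 FPKM (WT) and 800.1 FPKM (RBP-J KO) in replicate 1, and 1039 FPKM (WT) and 1141 FPKM (RBP-J KO) in replicate 2. Cdkn1a, the inhibitor p21, was at 999.7, 971, 1360.5 and 1428 FPKM in that order. Cdk4 was at 502, 349, 658 and 587 FPKM and Ccnd3 at 246, 187, 222 and 272 FPKM. The gene higher by 1.5-fold or more in both numbers was Ccnd2, named after its values were seen, at 11.6, 71.4, 7.90 and 211 FPKM (limma log2 difference 3.55, SE 0.58, adjusted p = 0.495; higher in both RBP-J KO libraries than in both WT libraries).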
